A study of Mus musculus with 35 samples.

Results

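The ATAC-seq peaks around Sox7, Sox17 and Sox18 were followed through the emergence of blood stem cells from the endothelium of the mouse embryo. They were taken by position, and the members were chosen with earlier results of these data known. A peak was taken where its midpoint lay in 1 of 3 windows of the mm9 genome, chr14:64500000-64620000 for Sox7, chr1:4400000-4750000 for Sox17 and chr2:181360000-181440000 for Sox18. The windows held 60 of the 76018 peaks in the authors' table, 16 for Sox7, 30 for Sox17 and 14 for Sox18. Of these, 13, 25 and 12 had enough counts to be tested, 50 in all. The other 10 were 192 to 365 bp wide and averaged at most 2.74 CPM (a library's counts scaled to a common total).

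Sox7, Sox17 and Sox18 make up the F subgroup of the SRY-related HMG-box transcription factors. They are expressed in endothelium, where they act partly in place of each other in the growth of vessels and the choice of arterial fate, and Sox18 also starts the lymphatic program. In the endothelial-to-hematopoietic transition, arterial endothelium gives rise to hemogenic endothelium, which releases blood progenitors. Sox17 is known to be needed for fetal blood stem cells and to be turned down as blood cells form. ATAC-seq counts the cuts that a transposase makes in open chromatin, so a peak's count reads how accessible that stretch is and not whether the gene is transcribed.

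The samples were pools of 1500 sorted cells from embryos that carry a 23GFP transgene, and each library was amplified for 13 PCR cycles. The 9 groups were, at embryonic day (E) 8.5, hemogenic endothelium (HE) and endothelial cells (EC), at E9.5 pro-HSC/HPC, HE and EC, and at E10.5 pre-HSC II, pre-HSC I, HE and EC (HSC, hematopoietic stem cell, HPC, hematopoietic progenitor cell). All groups carried the transgene, while sorting markers are not given in the sources used here. As labelled, the tissue was PAS+VU at E8.5 and AGM+VU at E10.5, so that day and tissue cannot be told apart across E10.5. Samples titled E9.5 carry a tissue label that names E8.5, and the title was followed. Each group had 4 libraries, save pro-HSC/HPC with 3. They are called biological replicates, without a word on litters, and the p-values therefore cover only the variation among the libraries at hand.

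The libraries held 456770 to 7415315 counts, and the pre-HSC II libraries, at 456770 to 1241216, were the shallowest group. By raw library totals, before TMM scaling, 3 counts there are worth between 2.42 and 6.57 CPM, against 0.405 CPM in the deepest library. Libraries 2 and 3 of pre-HSC I were closer to each other than sampling noise (chi-square per degree of freedom 0.461, against 2.59 to 8.04 in 50 other pairs within groups) and were counted as 1 sample, so n = 3 there. In 3 libraries, E9.5 HE 4 and E9.5 EC 3 and 4, a peak at chrX:103380576-103383382 held 2289 to 5527 CPM, against 109.5 to 981 CPM in the other 32 libraries. These CPM are also by raw library totals. The table gives positions and no genes, so the labelled cell types could not be checked against marker genes. In pooled cells, fewer cells with an open site and less opening per cell cannot be told apart.

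The widest peak of each window was taken here as its origin: chr14:64561046-64563046 (2000 bp), chr1:4481590-4485155 (3565 bp) and chr2:181409810-181412923 (3113 bp). That of Sox17 lies nearer the lower end of its window. Distances are in kb between midpoints, negative towards lower coordinates. No mm9 annotation was used here, so peaks are named by position and not assigned to promoters, exons or introns. On another mouse assembly (GRCm38.p6) the nearest neighbours are Pinx1 and 4930578I06Rik for Sox7, Rp1 and Mrpl15 for Sox17, and Gm29797 and Tcea2 for Sox18, and a window can hold sites that serve these genes. Peak widths had a median of 567 bp (Sox7), 570 bp (Sox17) and 1082.5 bp (Sox18), against 496 bp over all peaks.

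Per kilobase of peak, the most accessible of the 16 peaks described in full was the Sox18 peak at -17.0 kb, chr2:181393489-181395190, with 88.6 CPM per kb averaged over the 9 groups. It alone took 27.9% of the Sox18 window's CPM and stood above 99.3% of all peaks in CPM. In the Sox17 window the origin peak took 18.8% of the CPM, the peak at +78.6 kb 15.0% and the peak at +3.8 kb 14.2%. The Sox7 window was the weakest: its strongest peak, chr14:64576223-64577146 at +14.6 kb, averaged 33.4 CPM. The summed CPM of the Sox17 window was 285 ± 23.8 in pre-HSC II, against 493 ± 78.8 in E10.5 EC, and that of Sox18 was 273 ± 24.7 against 647 ± 194 (SD, n = 4 each). For Sox7 these sums were 63.0 ± 24.6 in pre-HSC II and 163 ± 27.3 in E10.5 EC. Pre-HSC II had the lowest mean of the 9 groups at 23 of the 50 tested peaks (8 Sox7, 9 Sox17, 6 Sox18), and at 27.8% of all tested peaks.

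**Figure D1:**
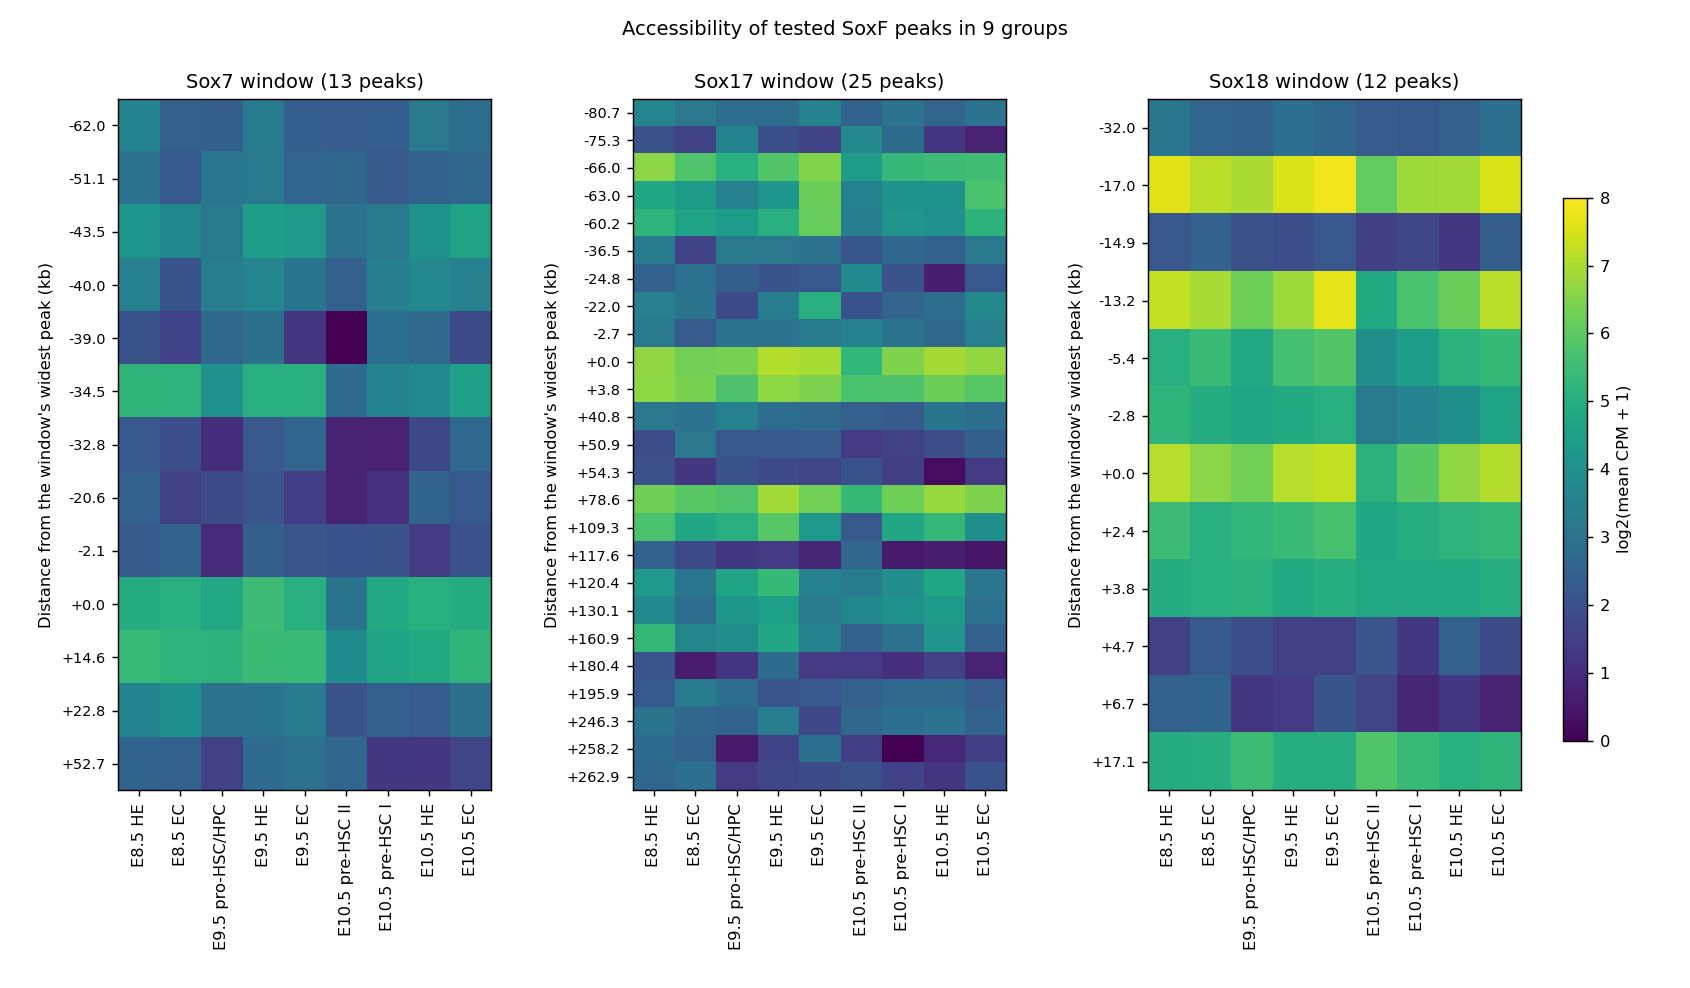
Mean accessibility of the 50 tested peaks, as log2(mean TMM-scaled CPM + 1), with 1 row per peak (distance in kb from the window's widest peak) and 1 column per group. A few rows carry most of each window's signal, and the Sox17 rows on either side of the origin are bright in different columns.

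Testing all 9 groups at once with edgeR's quasi-likelihood F test (8 degrees of freedom, Benjamini-Hochberg adjusted p of 0.05 over 67108 peaks), 30 of the 50 peaks differed, against 42.1% of all tested peaks. They were 9 of 13 in the Sox7 window, 16 of 25 in the Sox17 window and 5 of 12 in the Sox18 window. High counts are called more readily. Among peaks averaging at least 10 CPM, 19 of 22 in the windows differed (86.4%), against 56.2% of 20577 peaks overall. In the pairwise comparisons 25 of the 50 were called somewhere and 25 nowhere, with 5 Sox17 peaks and 1 Sox7 peak called higher in some comparison and lower in another. At the Sox17 peaks at -63.0, -60.2, -22.0 and 0 kb the only higher call was E9.5 over E8.5 EC, and comparisons share libraries. The shares of all tested peaks called somewhere, or in both directions, were not computed.

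At E9.5 the called peaks of the Sox17 window split by side. On the lower side, the peaks at -63.0, -60.2 and -22.0 kb were lower in HE than in EC, the first 2 of them also at E10.5. On the upper side, the peaks at +109.3, +120.4, +130.1 and +160.9 kb were higher in HE at E9.5 and at E10.5. At E8.5 only +160.9 kb was called, and the 3 lower-side peaks had log2 fold changes of 0.43, 0.68 and 0.50 there, none past the threshold. The origin peak and the peak at +3.8 kb between them were not called in HE against EC on any day.

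The peak chr1:4419893-4420842 (-63.0 kb) had 23.4, 19.6, 8.44 and 18.6 CPM in E9.5 HE, against 72.3, 70.7, 72.4 and 74.3 CPM in E9.5 EC. Every HE library lay far below every EC library. The log2 fold change was -2.00 ± 0.37 (SE, adjusted p = 0.000637, edgeR). At E10.5 it had 0, 31.6, 25.8 and 7.17 CPM in HE and 41.0, 60.3, 54.3 and 51.2 CPM in EC. The groups again did not overlap, and HE was uneven, with its shallow libraries 1 and 4 the lowest (log2 fold change -1.55 ± 0.38, adjusted p = 0.0128, edgeR).

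Its neighbour chr1:4422173-4424089 (-60.2 kb) had 35.7, 41.5, 31.5 and 19.7 CPM in E9.5 HE, against 75.8, 64.1, 64.6 and 75.7 CPM in E9.5 EC. The HE libraries were all lower (log2 fold change -1.11 ± 0.30, adjusted p = 0.0266, edgeR). At E10.5, HE had 9.52, 29.6, 14.5 and 7.96 CPM, against 22.3, 41.7, 43.8 and 33.3 CPM in EC. There the groups overlapped, and the call was near the threshold (log2 fold change -1.12 ± 0.32, adjusted p = 0.0440). The weaker peak chr1:4460980-4461713 (-22.0 kb) averaged 9.19 ± 3.54 CPM in E9.5 HE, well under the 32.1 ± 4.63 CPM of E9.5 EC (SD, n = 4 each), with a log2 fold change of -1.78 ± 0.47 (adjusted p = 0.0222). It was not called at E10.5.

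On the upper side, chr1:4592134-4593234 (+109.3 kb) had 51.6, 73.3, 55.2 and 58.0 CPM in E9.5 HE, against 20.8, 22.2, 16.6 and 13.5 CPM in E9.5 EC. All HE libraries were higher (log2 fold change 1.68 ± 0.33, adjusted p = 0.00115). At E10.5, HE had 24.6, 41.0, 72.7 and 17.5 CPM, against 20.0, 12.5, 12.5 and 14.5 CPM in EC. Here HE library 4 fell inside the EC range (log2 fold change 1.45 ± 0.34, adjusted p = 0.00856).

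The peak chr1:4603230-4604261 (+120.4 kb) behaved alike, with 40.0 ± 13.8 CPM in HE and 10.4 ± 6.42 CPM in EC at E9.5, then 26.5 ± 15.2 CPM in HE and 7.76 ± 3.65 CPM in EC at E10.5 (SD, n = 4 each). Its log2 fold changes were 1.85 ± 0.39 at E9.5 (adjusted p = 0.00256) and 1.76 ± 0.40 at E10.5 (adjusted p = 0.00747). The peak chr1:4613150-4613868 (+130.1 kb) was called with smaller margins, 21.8 ± 8.90 CPM in HE and 8.20 ± 4.80 CPM in EC at E9.5 (adjusted p = 0.0442), and 19.5 ± 2.84 CPM in HE and 7.05 ± 2.77 CPM in EC at E10.5 (adjusted p = 0.0299).

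The farthest of these, chr1:4643656-4644922 (+160.9 kb), was the Sox17 peak with the smallest p among the 9 groups (adjusted p = 1.04e-10, edgeR) and the only peak of the 3 windows called in HE against EC on all 3 days. At E8.5 it had 42.8, 35.2, 49.0 and 31.1 CPM in HE, against 9.94, 8.61, 11.6 and 16.8 CPM in EC. At E9.5 it had 23.6, 37.7, 17.4 and 26.3 CPM in HE, against 8.58, 18.8, 6.98 and 9.03 CPM in EC. The groups were apart at E8.5, and at E9.5 they overlapped at 1 library of each. At E10.5 HE had 17.5, 16.8, 18.5 and 15.9 CPM, against 4.65, 5.87, 3.41 and 4.63 CPM in EC, again with no overlap. The log2 fold changes were 1.71 ± 0.35 (adjusted p = 0.00367), 1.23 ± 0.34 (adjusted p = 0.0315) and 1.87 ± 0.38 (adjusted p = 0.00276) in order of day.

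**Figure D2:**
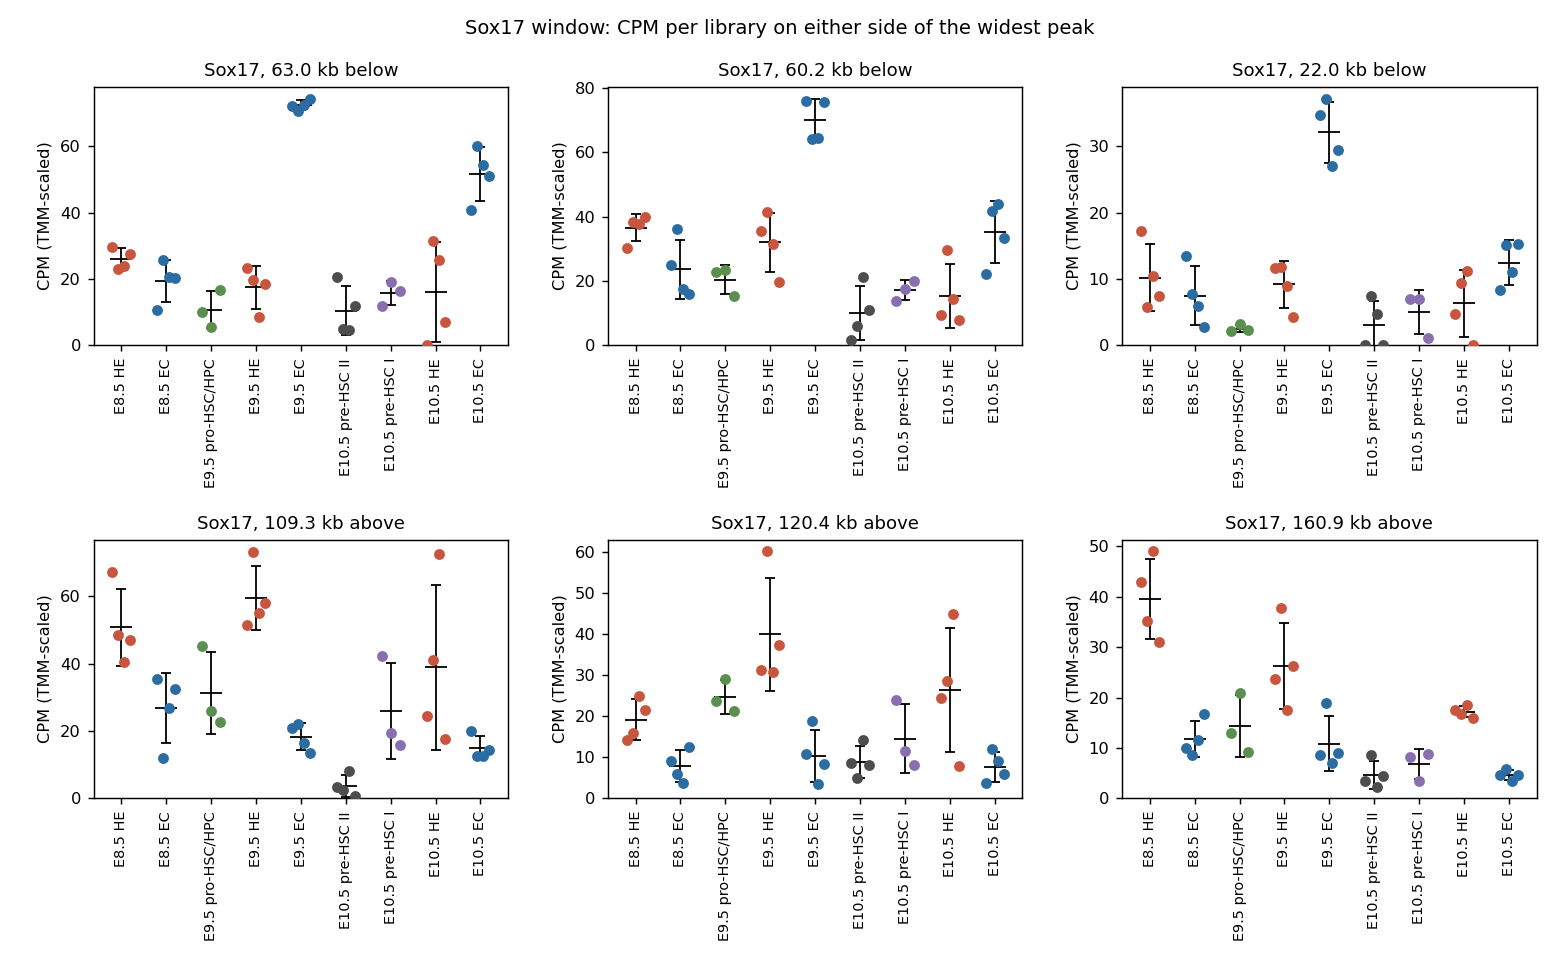
TMM-scaled CPM of 6 peaks of the Sox17 window in each library (points), with the group mean and SD (bars). The 3 peaks below the origin are highest in E9.5 EC, at 72.4 ± 1.50 CPM in the first panel, and the 3 above it are higher in HE than in EC on each day.

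In counts, 9 of the 50 peaks were called in HE against EC at E9.5 (5 higher, 4 lower), against 2.58% of all tested peaks (1.36% higher, 1.22% lower). At E10.5 there were 7 (4 higher, 3 lower), against 2.28% (0.717% higher, 1.56% lower), and at E8.5 there was 1, higher, against 1.43% (1.30% higher). The E8.5 count was 3 with DESeq2, against 3.10% of all, and 6 with only these groups in the fit, against 7.25%, all of them higher. At E8.5 every HE library was above every EC library at 10 members, against 7.61% of all tested peaks, and below at 0, against 4.32%. The E10.5 count was 1, the +160.9 kb peak, with only these groups in the fit, against 0.294% of all, and 7 when that fit had the replicate number as a block, against 5.27%. The Sox17 window held 7 of the 9, 6 of the 7 and the single E8.5 call. Among peaks of at least 10 CPM the shares at E9.5 were 7 of 22 (31.8%) and 5.32% of all, and at E10.5 7 of 22 and 5.20%. Median log2 fold changes over the 50 peaks were 0.44, 0.001 and -0.19 in order of day, against 0.02, 0.05 and 0.01 over all tested peaks.

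**Figure D3:**
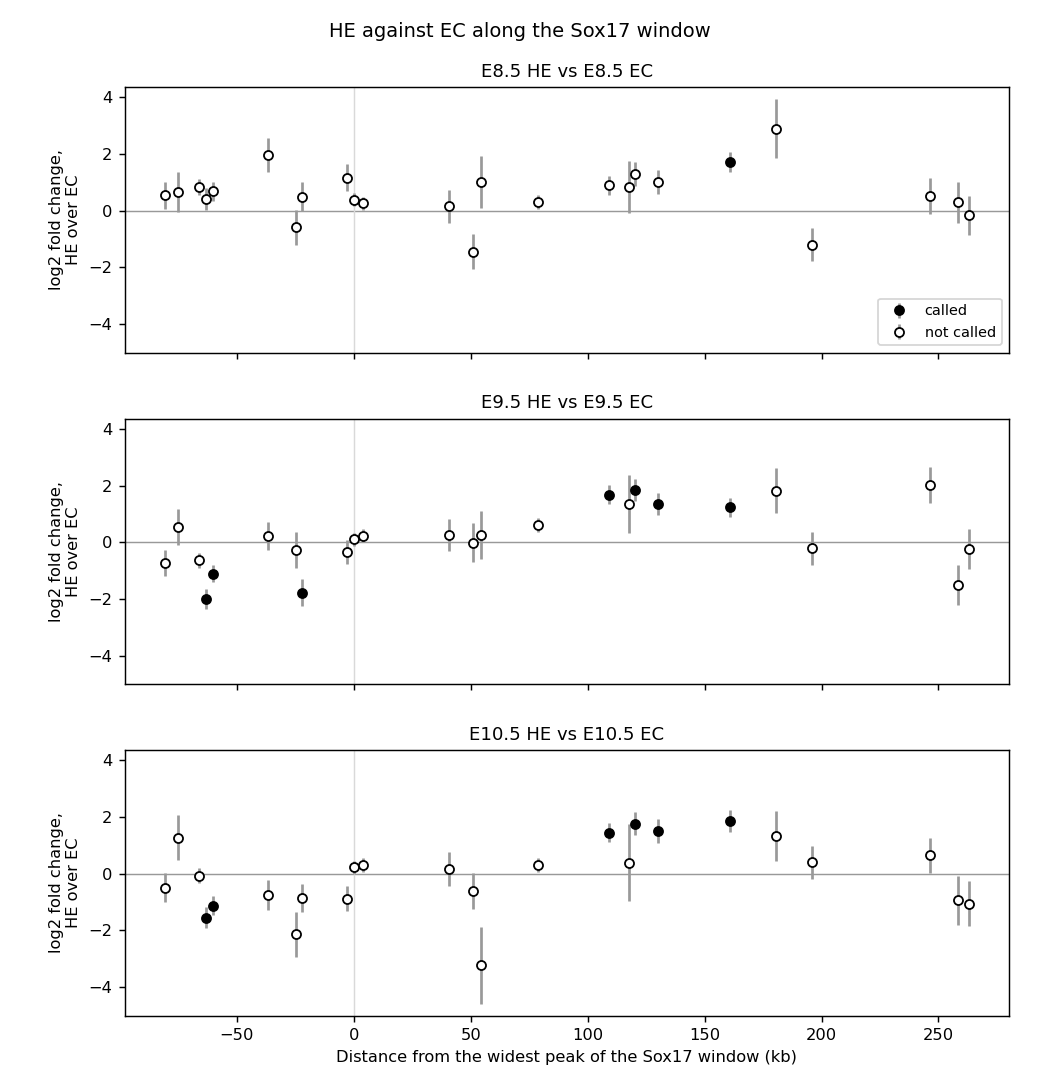
Log2 fold change of HE over EC, with its standard error, for the 25 tested Sox17 peaks against distance from the origin peak (kb), on each day. Filled points passed an adjusted p of 0.05. At E9.5 and E10.5 the called peaks below the origin are negative and those above it positive, and at E8.5 only the peak at +160.9 kb is called.

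These counts rest on few libraries. At E9.5, 3 peaks were called without EC 1 or HE 4, 4 without EC 4 or HE 3, and 5 without EC 3, HE 1 or HE 2. None was called without the 3 libraries with high chromosome X counts, a fit that called only 0.0554% of all tested peaks. Without those 3, fold changes kept their sign, at -1.99 for -63.0 kb (adjusted p = 0.0914), 1.50 for +109.3 kb (adjusted p = 0.205) and 1.49 for +120.4 kb (adjusted p = 0.306). The E9.5 calls at -63.0, +109.3 and +120.4 kb held when any single library was left out. At -60.2 kb the call was lost without EC 1, EC 4, HE 3 or HE 4, at -22.0 kb without EC 1, EC 2, HE 3 or HE 4, at +130.1 kb without any library save EC 2, and at +160.9 kb without EC 1, 3 or 4 or HE 1, 2 or 4. Over all alternatives tried their log2 fold changes ran between -1.31 and -0.93, -1.97 and -1.59, 0.98 and 1.78, and 0.96 and 1.62.

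At E10.5, 2 peaks were called without EC 2, 3 without HE 4, and 4 without EC 3, HE 1 or HE 3. Without the shallow HE libraries 1 and 4 there were 3, all higher, against 0.511% of all tested peaks. The call at +160.9 kb held in every alternative run, with log2 fold changes between 1.71 and 2.03. The call at -63.0 kb was lost without EC 2, HE 1 or HE 4 (log2 fold changes between -2.02 and -0.87 over all alternatives), that at +109.3 kb without EC 2 or HE 3 (0.95 to 1.94) and that at +120.4 kb without HE 3 (1.36 or more). At -60.2 kb it was lost without any single library save EC 1 or HE 2, and at +130.1 kb without EC 2, 3 or 4 or HE 3 or 4. The E8.5 call at +160.9 kb was lost without the shallow libraries 1 and 2 of both groups, where the log2 fold change was 1.45 (adjusted p = 0.445). That fit called 0.0233% of all tested peaks.

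The size of the HE to EC difference itself differed between E9.5 and E8.5 at 3 peaks, all in the Sox17 window's lower side and all more negative at E9.5, against 1.49% of all tested peaks (1.21% more negative). They were chr1:4416589-4418105 (-66.0 kb, change of the log2 difference -1.47 ± 0.37, adjusted p = 0.0262), the -63.0 kb peak (-2.43 ± 0.53, adjusted p = 0.00829) and the -60.2 kb peak (-1.79 ± 0.44, adjusted p = 0.0214). At -66.0 kb, E8.5 HE had 96.4, 120.4, 88.2 and 83.6 CPM, against 45.4, 58.6, 62.8 and 49.3 CPM in E8.5 EC. At E9.5 the order was turned, with 61.1, 71.5, 38.8 and 54.2 CPM in HE and 102, 92.3, 97.7 and 61.1 CPM in EC. HE was above EC without overlap at E8.5, and the groups overlapped at E9.5, neither difference being called by itself. None of the 3 changes was called without the shallow E8.5 libraries, against 0.00823% of all tested peaks. The same held without the E9.5 libraries with high chromosome X counts, against 0.0625%. Without E8.5 EC 4 or without E9.5 HE 4, 1 was called. At -63.0 kb the log2 change was -2.28 without the shallow libraries (adjusted p = 0.233) and -2.44 without those with high chromosome X counts (adjusted p = 0.0959). DESeq2 called 5, against 3.48% of all, and a fit of only these groups 6, against 7.70%. Between E10.5 and E9.5 no peak of the windows or of the whole table differed (0%, and 0 called by DESeq2), with 1 member at an unadjusted p under 0.05 in edgeR, against 2.64% of all.

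Between E9.5 and E8.5 EC, 4 peaks rose, all in the Sox17 window. They were 8% of the members, against 11.1% of all tested peaks (6.49% higher). Among peaks of at least 10 CPM, 3 of 22 were higher (13.6%), against 14.4% of all. The members' shares were thus near or below those of all peaks. Over the 3 days EC averaged 19.3 ± 6.33, 72.4 ± 1.50 and 51.7 ± 8.08 CPM at -63.0 kb, 23.7 ± 9.17, 70.0 ± 6.61 and 35.3 ± 9.74 CPM at -60.2 kb, and 7.51 ± 4.49, 32.1 ± 4.63 and 12.5 ± 3.35 CPM at -22.0 kb (SD, n = 4 each). E9.5 EC was the highest of the 9 groups at all 3. The log2 fold changes of E9.5 over E8.5 EC were 1.90 ± 0.38 (adjusted p = 0.000516), 1.61 ± 0.32 (adjusted p = 0.000450) and 2.18 ± 0.51 (adjusted p = 0.00277), and these held in every alternative run. The fourth was the origin peak, with an average of 124 ± 15.8 CPM in E9.5 EC against 77.2 ± 15.5 CPM in E8.5 EC (log2 fold change 0.68 ± 0.23, adjusted p = 0.0462), a call lost without any single library save E8.5 EC 3 or E9.5 EC 3 (0.27 to 0.83 over all alternatives). No peak passed between E10.5 and E9.5 EC, against 0.316% of all. At an unadjusted p under 0.05 there were 10 members in edgeR, against 9.15% of all, and DESeq2 called 3, against 1.12%. HE averaged 26.1 ± 3.17, 17.5 ± 6.40 and 16.1 ± 15.0 CPM at -63.0 kb on the 3 days, and 36.6 ± 4.26, 32.1 ± 9.19 and 15.4 ± 9.87 CPM at -60.2 kb (SD, n = 4 each). No member was called between E9.5 and E8.5 HE, against 2.14% of all. At an unadjusted p under 0.05 there were 4 in edgeR, against 15.4% of all, and DESeq2 called 1, against 5.21%.

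The origin peak of the Sox17 window averaged 134 ± 19.4 CPM in HE and 124 ± 15.8 CPM in EC at E9.5, and 121 ± 43.5 CPM in HE and 104 ± 22.2 CPM in EC at E10.5 (SD, n = 4 each). These differences were within the spread (log2 fold changes 0.11 ± 0.23 and 0.23 ± 0.23, adjusted p = 0.937 and 0.782). Its neighbour at +3.8 kb, chr1:4486021-4488287, was called in no pairwise comparison. The peak at +78.6 kb, chr1:4561353-4562685, had 113, 132, 102 and 125 CPM in HE and 78.1, 85.0, 71.6 and 75.0 CPM in EC at E9.5, with no overlap but no call (log2 fold change 0.60 ± 0.25, adjusted p = 0.223).

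The called peaks of the Sox18 window all changed in the same direction. They were 5, at -17.0, -13.2, -5.4, -2.8 and 0 kb, and every call in the window was lower in HE, pro-HSC/HPC or pre-HSC II than in EC. Over the 9 group means, the Pearson r of log2(CPM + 1) between these 5 peaks had a median of 0.908 (10 pairs, which share libraries and depth), against 0.621 over the 15 pairs of the 6 Sox17 peaks described in full and 0.726 over the 10 pairs of the Sox7 peaks.

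The peak chr2:181397216-181399037 (-13.2 kb) had the smallest p of all members (adjusted p = 4.70e-12 among the 9 groups, edgeR). It had 118, 125, 100.2 and 106 CPM in E9.5 HE, against 207, 190.3, 205 and 217 CPM in E9.5 EC, the group with the highest mean. No HE library reached the EC range, and the log2 fold change of HE over EC was -0.86 ± 0.25 (adjusted p = 0.0421). At E10.5 it averaged 72.2 ± 38.5 CPM in HE and 139 ± 52.0 CPM in EC (SD, n = 4 each, log2 fold change -0.92 ± 0.25, adjusted p = 0.0336), with overlap. The E9.5 call was lost when any single library was left out (log2 fold changes between -0.97 and -0.78 over all alternatives), and the E10.5 call without EC 2, EC 3, HE 1 or HE 4 (-1.20 to -0.42).

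The other strong Sox18 peaks did not pass in HE against EC. At -17.0 kb, HE averaged 184 ± 31.5 CPM at E9.5 and 117 ± 75.9 CPM at E10.5, against 228 ± 13.3 and 184 ± 58.9 CPM in EC. The E10.5 HE values there were 71.4, 145, 209.7 and 40.6 CPM, with the shallow libraries 1 and 4 the lowest. At the other extreme, chr2:181414448-181415867 (+3.8 kb) had the largest adjusted p of all members among the 9 groups (0.984, edgeR), and chr2:181427695-181429196 (+17.1 kb) did not pass either (adjusted p = 0.111) and had its highest mean in pre-HSC II. No test compared peaks with each other.

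**Figure D4:**
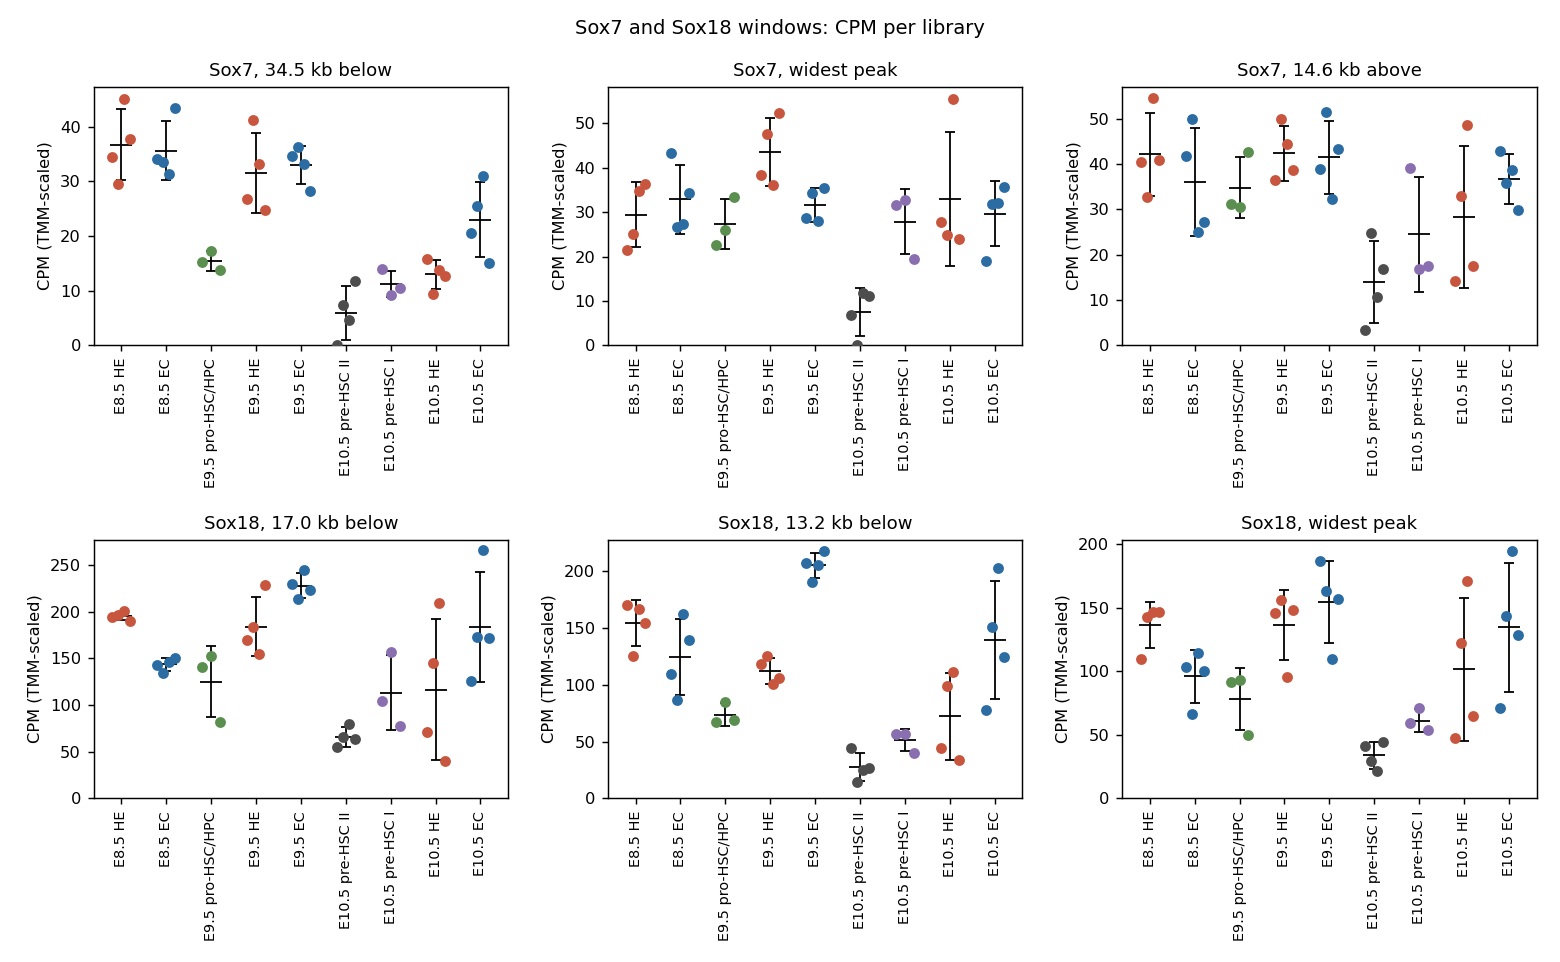
TMM-scaled CPM of 3 Sox7 peaks (top) and 3 Sox18 peaks (bottom) in each library (points), with the group mean and SD (bars). Pre-HSC II has the lowest mean in all 6 panels, and at the Sox18 peak at -13.2 kb the E9.5 EC libraries sit between 190.3 and 217 CPM, above every other E9.5 library.

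In the Sox7 window the peak with the smallest p was chr14:64527058-64527964 (-34.5 kb, adjusted p = 1.59e-08, edgeR). It was lower on later days in HE, averaging 36.7 ± 6.53, 31.5 ± 7.37 and 13.0 ± 2.70 CPM on the 3 days in turn (SD, n = 4 each). The E10.5 HE libraries had 15.9, 9.42, 13.9 and 12.7 CPM, against 26.8, 41.1, 33.2 and 24.8 CPM in E9.5 HE. The E10.5 libraries were all lower, and this was the 1 member called between these groups, against 0.554% of all tested peaks (0.492% lower), with a log2 fold change of -1.30 ± 0.31 (adjusted p = 0.0281). The call was lost without E9.5 HE 2 or 3 or E10.5 HE 1, 2 or 4, and the count was 0 without E9.5 HE 2 or 3 or E10.5 HE 1 or 4, and 2 without E10.5 HE 3 (-1.44 to -1.14 over all alternatives). EC averaged 35.6 ± 5.31, 33.0 ± 3.48 and 23.0 ± 6.82 CPM over the same days, and HE did not pass against EC on any of them.

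A weak Sox7 peak, chr14:64522840-64523256 (-39.0 kb), was called higher in HE than in EC at E9.5. It had 6.68, 8.86, 6.75 and 4.64 CPM in E9.5 HE, against 1.99, 1.51, 0 and 1.74 CPM in E9.5 EC. All HE libraries were higher (log2 fold change 2.14 ± 0.61, adjusted p = 0.0380), a call lost when any single library was left out (1.93 to 2.32 over all alternatives). The origin peak of this window averaged 43.6 ± 7.65 CPM in HE and 31.6 ± 3.84 CPM in EC at E9.5, without overlap and without a call (log2 fold change 0.46 ± 0.29, adjusted p = 0.588).

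The E9.5 pro-HSC/HPC, the first labelled blood group, were compared with EC and HE of the same day, and the comparison with EC shares its EC libraries with that of HE. Against EC, 13 members were called, 2 higher and 11 lower, against 11.8% of all tested peaks (5.05% higher, 6.78% lower). Of the lower peaks, 5 were in the Sox17 window, 4 in the Sox18 window and 2 in the Sox7 window. At -63.0 kb of Sox17, pro-HSC/HPC had 10.2, 5.48 and 16.7 CPM, below all EC libraries (log2 fold change -2.80 ± 0.45, adjusted p = 7.65e-06). At -22.0 kb they had 2.15, 3.20 and 2.28 CPM (log2 fold change -3.65 ± 0.63, adjusted p = 2.67e-05), and EC none under 27.1 CPM. At -13.2 kb of Sox18 they had 67.2, 84.9 and 69.3 CPM (log2 fold change -1.47 ± 0.28, adjusted p = 0.000141).

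The lower peaks also included -66.0 kb (log2 fold change -1.41 ± 0.30) and -60.2 kb (-1.75 ± 0.35) of Sox17, the Sox18 peaks at -17.0 kb (-0.85 ± 0.28), -5.4 kb (-1.02 ± 0.31) and 0 kb (-0.97 ± 0.29), and the Sox7 peak at -34.5 kb (-1.09 ± 0.34). The 2 higher peaks were weak, chr1:4407766-4408337 (-75.3 kb of Sox17) at 11.1 ± 3.02 CPM in pro-HSC/HPC and 2.09 ± 1.08 CPM in EC, and the Sox7 peak at -39.0 kb at 5.52 ± 2.48 CPM in pro-HSC/HPC and 1.31 ± 0.895 CPM in EC (SD, n = 3 and 4). The Sox17 peaks at -66.0, -63.0, -60.2 and -22.0 kb and the Sox18 peak at -13.2 kb kept their call in every alternative run. The call at -39.0 kb of Sox7 was near the threshold (adjusted p = 0.0482) and was lost when any single library was left out, and it was kept in 4 of 9 other alternatives. Those at -17.0 and -5.4 kb of Sox18 and at -34.5 kb of Sox7 were kept in 4 of the 7 fits that left out 1 library. The count was 7 without pro-HSC/HPC 1 and 8 without pro-HSC/HPC 2. Without the E9.5 libraries with high chromosome X counts it was 10, all lower, against 7.47% of all tested peaks. Both higher calls were lost in that fit (adjusted p = 0.0987 at -75.3 kb and 0.221 at -39.0 kb, edgeR). The call at -75.3 kb was also lost without pro-HSC/HPC 2.

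Against HE of the same day, only the Sox17 peak at +78.6 kb was called, lower, against 1.73% of all tested peaks (1.09% lower). It had 56.7, 74.9 and 33.5 CPM in pro-HSC/HPC, against 113, 132, 102 and 125 CPM in HE. All 3 lay below HE (log2 fold change -1.08 ± 0.28, adjusted p = 0.0246). The call was absent without pro-HSC/HPC 1 or 3, without HE 2, or without the libraries with high chromosome X counts (log2 fold change -1.13, adjusted p = 0.0547). The last of these fits called 0.839% of all tested peaks. At 17 members every pro-HSC/HPC library was below every HE library, against 9.65% of all tested peaks, and at 1 it was above, against 8.58%. The count rests on the fit: 6 were called with DESeq2 (5 lower), against 3.39% of all, and 13 with only these groups in the fit (12 lower), against 8.5% of all. The median log2 fold change was -0.47 over the 50 and 0.03 over all.

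At E10.5, pre-HSC I were not separated from HE at any member (0, against 0.0805% of all, and 0 in DESeq2). At an unadjusted p under 0.05 in edgeR there were 11, against 8.17% of all, and 2 were called without the shallow HE libraries 1 and 4, against 1.04%. At +109.3 kb of Sox17, pre-HSC I had 42.4, 19.6 and 15.9 CPM, against 24.6, 41.0, 72.7 and 17.5 CPM in HE, and the groups overlapped. At -13.2 kb of Sox18 they had 56.9, 56.3 and 40.0 CPM, against 44.4, 99.2, 111 and 34.2 CPM in HE. The spread of the HE libraries was the wider.

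Pre-HSC II were lower than pre-HSC I at 4 members (8%), against 4.98% of all tested peaks (4.14% lower). Among peaks of at least 10 CPM, 3 of 22 were lower (13.6%), near the 10.7% of all. At +109.3 kb of Sox17, pre-HSC II had 3.43, 2.47, 8.26 and 0.735 CPM, against 42.4, 19.6 and 15.9 CPM in pre-HSC I (log2 fold change -2.89 ± 0.52, adjusted p = 0.000334). All pre-HSC II libraries were lower, and pre-HSC II was also lower there than EC (-2.08 ± 0.52, adjusted p = 0.00159), though this site was higher in HE than in EC. The origin peak of Sox17 had 30.9, 34.6, 33.0 and 55.8 CPM in pre-HSC II, against 125, 76.9 and 58.2 CPM in pre-HSC I (log2 fold change -1.13 ± 0.27, adjusted p = 0.00766).

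The origin peak of Sox7 had 6.87, 0, 11.8 and 11.0 CPM in pre-HSC II, against 31.6, 32.7 and 19.4 CPM in pre-HSC I (log2 fold change -1.83 ± 0.41, adjusted p = 0.00438). No library of the groups overlapped. The fourth was the weak Sox7 peak at -39.0 kb, which had no count in any pre-HSC II library and 8.85, 2.01 and 8.81 CPM in pre-HSC I. A floor of 3 counts over the group would put it 7.51-fold lower than in pre-HSC I and 2.95-fold lower than in EC. That floor treats reads as independent and leaves out the spread between libraries. Even counts were over-represented, so these folds are not firm lower bounds. The count of called members was 7 without pre-HSC II 1, and 1, the +109.3 kb peak, when the fit held no other groups, against 3.23% of all. The call at the Sox17 origin was also lost without pre-HSC I 1 and with cyclic loess offsets (log2 fold change -0.54), which moved the median of all peaks up by 0.28 in this comparison.

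Against EC, pre-HSC II differed at 21 members, 3 higher and 18 lower, against 25.3% of all tested peaks (9.15% higher, 16.2% lower). Among peaks of at least 10 CPM, 15 of 22 were lower (68.2%), against 34.2% overall. The lower peaks were 6 of 13 in the Sox7 window, 7 of 25 in the Sox17 window and 5 of 12 in the Sox18 window. The median log2 fold change was -0.63 over the 50 and -0.14 over all peaks, and the median of all peaks was moved up by 0.24 to 0.34 under the other scalings. With cyclic loess offsets 5 were higher and 12 lower.

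The Sox18 peak at -13.2 kb had 44.6, 14.8, 24.8 and 27.2 CPM in pre-HSC II, against 78.2, 151, 203 and 124 CPM in EC. Every pre-HSC II library was lower (log2 fold change -2.36 ± 0.29, adjusted p = 6.79e-09). The Sox18 origin peak had 41.2, 29.7, 21.2 and 44.1 CPM in pre-HSC II, against 71.2, 144, 195 and 128 CPM in EC (-1.98 ± 0.29, adjusted p = 4.72e-07). At -63.0 kb of Sox17, pre-HSC II had 20.6, 4.95, 4.72 and 11.8 CPM, against 41.0, 60.3, 54.3 and 51.2 CPM in EC (-2.36 ± 0.45, adjusted p = 4.54e-05). At the Sox7 origin the log2 fold change was -1.93 ± 0.39 (adjusted p = 0.000103) and at -34.5 kb -1.75 ± 0.38 (adjusted p = 0.000314).

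The 3 higher peaks were weak sites of the Sox17 window. At -75.3 kb, pre-HSC II had 8.58, 9.89, 16.5 and 15.4 CPM, against 0.931, 0.391, 0 and 1.45 CPM in EC (log2 fold change 4.20 ± 0.72, adjusted p = 8.10e-06). At -24.8 kb, chr1:4458328-4458821, pre-HSC II averaged 13.0 ± 8.31 CPM and EC 3.56 ± 1.69 CPM, and at +117.6 kb, chr1:4600797-4601166, 5.22 ± 2.36 CPM and 0.375 ± 0.457 CPM (SD, n = 4 each). Values at the last site rest on few counts in libraries of this depth. The call at -24.8 kb was lost without EC 2, 3 or 4 or pre-HSC II 1 or 2 (adjusted p = 0.0296 with all libraries).

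**Figure D5:**
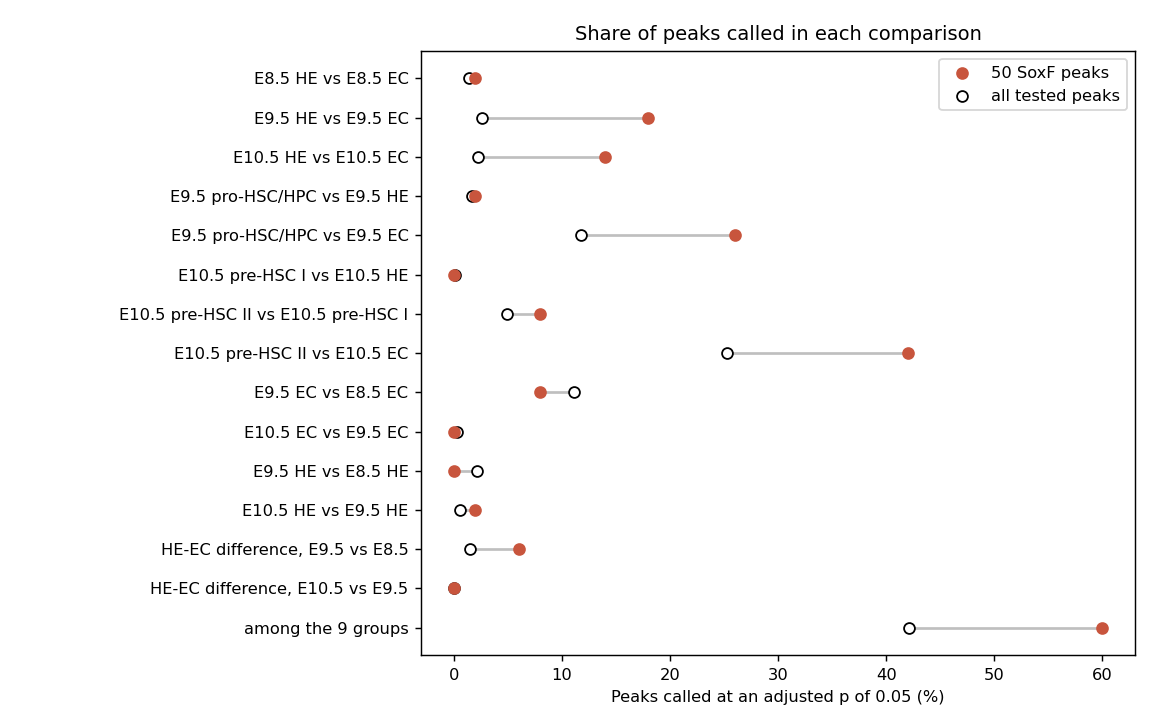
Share of the 50 tested SoxF peaks (filled) and of all tested peaks (open) called at an adjusted p of 0.05 in each comparison (%). The shares lie apart in HE against EC at E9.5 (18.0% and 2.58%) and E10.5 (14.0% and 2.28%), and close together at E8.5. They also lie apart among the 9 groups (60% and 42.1%), in pre-HSC II against EC (42% and 25.3%) and in pro-HSC/HPC against EC (26% and 11.8%). In some comparisons the SoxF share is the lower, as in E9.5 against E8.5 EC (8% and 11.1%) and HE (0% and 2.14%).

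For each window's peak with the smallest p, the 3 most alike peaks elsewhere were sought by the Pearson r of log2(CPM + 1) over the 9 group means. For the Sox18 peak at -13.2 kb they were chr6:97093852-97095590 (r = 0.998), chr19:37555974-37556792 (r = 0.998) and chr15:59398963-59399846 (r = 0.997), all highest in E9.5 EC. For the Sox7 peak at -34.5 kb r was 0.993 to 0.988, with chr7:6831837-6833234 first, and for the Sox17 peak at +160.9 kb 0.981 to 0.979, with chr12:73095945-73096376 first. The search ran over 67108 peaks with 9 points each, and these values are descriptions with no test.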

How the data were processed

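ATAC-seq was measured in 35 libraries of 9 groups. The deposited values are raw counts from the authors, 1 per peak and library over 76018 shared peaks, with no normalization. The submitters' processing notes name the build mm9, MACS2 2.0.1 and DiffBind 1.14.6, Bowtie 1.0.0, Trim Galore 0.3.1, bedtools 2.17.0, deepTools and SAMtools, without roles or settings, so read filtering and any shift to the transposase's cut are not given in the sources used here. Nor is whether start positions count from 0 or 1. Even counts were over-represented, making up 54.1% to 78.2% of counts of at least 10 and under 50 in a library, so intervals that treat reads as independent would be too narrow.

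Here the counts were tested with edgeR 4.0.16 (R 4.3.3, limma 3.58.1): TMM scaling, filterByExpr by group (8910 peaks removed, 67108 tested), 1 quasi-likelihood fit of 34 samples with 25 residual degrees of freedom, and Benjamini-Hochberg adjustment over all tested peaks at 0.05. All adjusted p-values are from edgeR unless DESeq2 (1.42.0) is named. CPM are TMM-scaled, save where raw library totals are named, and the edgeR and DESeq2 tests were run on counts instead. Besides display, CPM gave the group means and their order, the window sums and the overlap of libraries between groups. They also set the peaks of highest mean, the cut by mean CPM, the Pearson r over group means and the flags of single libraries. Comparisons that share a group are not independent. Members and lists were chosen with earlier results of these data known. Described in full were, in each window, the peak with the highest mean and the 5 with the smallest p among the 9 groups. Others are named where they passed a comparison, set a range or are the origin's neighbour.

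Alternatives were other scalings, no count filter, pre-HSC I libraries kept apart, DESeq2, only the compared groups in the fit, a replicate block, each library left out, and, chosen after seeing the data, fits without shallow or outlying libraries. Same-numbered libraries of E10.5 HE and EC deviated together (Pearson r of deviations 0.127 to 0.349, 4 pairs), which by the rule used makes them pairs. No other comparison met the rule. In HE against EC, r was still positive at E9.5 (0.0561 to 0.173) and at E8.5 (0.0353 to 0.0726). In E9.5 against E8.5 EC it was -0.0220 to -0.00942. The script was tested on simulated data. Sequences and gene structures were not used, for want of an mm9 genome and of entries for these genes in the promoter table.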

Additional observations from a re-analysis of the deposited data

Results flagged for a closer look

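At 3 peaks of the Sox17 window the HE to EC difference changed between E9.5 and E8.5 by a test of the change itself. The change of the log2 difference was -1.47 at chr1:4416589-4418105, -2.43 at chr1:4419893-4420842 and -1.79 at chr1:4422173-4424089 (edgeR). EC was the group that moved most at the last 2, with a mean of 72.4 ± 1.50 CPM in E9.5 EC against 19.3 ± 6.33 CPM in E8.5 EC at the second of the 3 (SD, n = 4 each).

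Single libraries stood apart from the other 3 of their group in 6 of 111 groups of 4 examined over the 16 peaks described in full, where chance alone flags about 1 in 20. At the Sox7 origin peak, chr14:64561046-64563046, E10.5 HE 3 had 55.5 CPM, against 23.9 to 27.8 CPM in the others. At chr14:64522840-64523256, E8.5 EC 4 had 3.50 CPM, against 1.42 to 1.72 CPM. At the Sox17 origin peak, chr1:4481590-4485155, pre-HSC II 4, the deepest library of that group, had 55.8 CPM, against 30.9 to 34.6 CPM. At the Sox18 origin peak, chr2:181409810-181412923, E8.5 HE 1 had 109.5 CPM, against 143 to 146 CPM, and E9.5 HE 3 had 95.7 CPM, against 146 to 156 CPM. At chr2:181404722-181407182, E8.5 EC 2 had 29.3 CPM, against 47.5 to 48.6 CPM.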

How the results depend on the processing

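Of the 64 calls of a peak in a comparison, 23 were kept in every alternative run, 41 were lost in at least 1 and 29 were lost on leaving out a single library. None changed sign. Depth limits the pre-HSC II values most.

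The count of called members was 30 among the 9 groups in the fit reported and 28 to 33 with any library left out. Counts that moved by over 1.5 times are as follows, with the share of all tested peaks called in the same fit in brackets. With only the compared groups in the fit, HE against EC gave 6 at E8.5 (7.25%) and 1 at E10.5 (0.294%). Pro-HSC/HPC against HE gave 13 in such a fit (8.5%), and pre-HSC II against pre-HSC I gave 1 (3.23%). For EC, E9.5 against E8.5 gave 11 (27.8%) and E10.5 against E9.5 gave 3 (2.49%). For HE these counts were 3 (12.5%) and 0 (0.232%). The change of the HE to EC difference across E9.5 and E8.5 gave 6 (7.7%). DESeq2 gave 3 for E8.5 HE against EC (3.1%), 6 for pro-HSC/HPC against HE (3.39%) and 7 for E9.5 against E8.5 EC (15.6%). It gave 3 for E10.5 against E9.5 EC (1.12%), 1 for E9.5 against E8.5 HE (5.21%) and 5 for the change of difference (3.48%).

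Keeping pre-HSC I libraries 2 and 3 apart gave 2 for E8.5 HE against EC (1.53%) and 1 for pre-HSC I against HE (0.736%). It gave 7 for pre-HSC II against pre-HSC I (7.52%). Pro-HSC/HPC against HE gave 2 with RLE factors (1.9%), with total counts (1.72%) and with no count filter (1.63%). RLE factors (0.471%) and loess offsets (0.469%) gave 1 for E10.5 against E9.5 EC. E9.5 against E8.5 HE gave 1 with RLE factors (2.89%), 1 with total counts (2.84%) and 2 with loess (2.5%). E10.5 against E9.5 HE gave 2 with loess (0.721%).

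Without the shallow E10.5 HE libraries there were 3 for E10.5 HE against EC (0.511%) and 2 for pre-HSC I against HE (1.04%). There were 0 for E10.5 against E9.5 HE (0.0483%). Without the shallow E8.5 libraries there were 0 for E8.5 HE against EC (0.0233%) and 0 for the change of difference (0.00823%). With the 3 E9.5 libraries of high chromosome X counts removed, the count was 0 for E9.5 HE against EC (0.0554%). It was also 0 for pro-HSC/HPC against HE (0.839%) and for the change of difference (0.0625%). These fits also held fewer samples, and the causes were not tested.

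With any 1 library left out the counts were 1 to 2 (E8.5 HE against EC, 2 without EC 4), 3 to 6 (E9.5 HE against EC), 2 to 7 (E10.5 HE against EC), 0 to 1 (pro-HSC/HPC against HE), 7 to 13 (pro-HSC/HPC against EC), 0 (pre-HSC I against HE), 3 to 7 (pre-HSC II against pre-HSC I), 19 to 22 (pre-HSC II against EC), 3 to 5 (E9.5 against E8.5 EC), 0 (E10.5 against E9.5 EC and E9.5 against E8.5 HE), 0 to 2 (E10.5 against E9.5 HE) and 1 to 3 (change of difference from E8.5 to E9.5), and 0 for that from E9.5 to E10.5.

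The replicate block gave 7 members for E10.5 HE against EC (2.69% of all tested peaks), the comparison that met the pairing rule. With only these groups in the fit it gave 7 again (5.27%), where the fit without the block gave 1 (0.294%). In the others, which did not meet the rule, the block moved pro-HSC/HPC against HE to 2 (2.13%). It moved the change of difference to 5 (1.9%), and no other count by over 1.5 times. Other scalings shifted the all-peak median (log2) by more than 0.1 in pre-HSC II against EC (0.27 with RLE factors, 0.34 with total counts, 0.24 with loess) and against pre-HSC I (0.27, 0.26 and 0.28), and, with total counts, in E8.5 HE against EC (-0.11), pro-HSC/HPC against EC (0.13), E9.5 against E8.5 EC (-0.23) and the change of difference (0.15), and with RLE factors in E9.5 against E8.5 HE (-0.10).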
